A study of Homo sapiens with 18 samples.

Results

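The HOX genes are 4 clusters of homeobox genes, and 38 of them were examined here, out of 20163 protein-coding genes in the annotation. The members were given as a list of names, 10 of the HOXA cluster on chromosome 7, 10 of the HOXB cluster on chromosome 17, 9 of the HOXC cluster on chromosome 12 and 9 of the HOXD cluster on chromosome 2. The rule itself uses no measured value, although the list was drawn up with earlier results of these data known. The promoter of a gene was taken as 1 kb either side of the 5′ end of its gene record on GRCh37, and each cluster ran from 5 kb before its first member to 5 kb after its last.

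DNA of 3 established human cell lines was used, namely HCT15 from a colorectal carcinoma and DU145 and PC3 from prostate cancers. Each line stands for 1 tumour, and none was treated. Reduced representation bisulfite sequencing (RRBS), in which DNA cut with the enzyme MspI is converted with bisulfite and sequenced, gave the methylated share of the reads at single CpGs in 1 library per line. MBD-seq, in which methylated fragments are captured with a methyl-binding domain and sequenced, was done once per line with each of 5 kits (MethylMagnet, MethylCollector, MethylCollector Ultra, MethylCap and MethylMiner), giving 15 libraries.

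HOX genes encode homeodomain transcription factors that set the identity of body segments along the axis from head to tail. Their order along the chromosome follows the order in which they are expressed. The low-numbered paralog groups at one end of a cluster act in the hindbrain and neck, and the high-numbered groups at the other end act in the trunk, limbs and urogenital tract. The promoters are rich in CpGs and, in cells that do not express the genes, are usually held silent by Polycomb proteins rather than by DNA methylation. Hypermethylation of HOX promoters is common in tumours and in tumour cell lines.

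RRBS covered 2195724 CpGs of HCT15, 2398973 of DU145 and 2377143 of PC3 at least 10 times, with a median coverage of 23, 33 and 26 reads. Within the HOX promoters the number of such CpGs was 1546, 1338 and 1640. A promoter held at least 7 of them in HCT15 and PC3 and at least 3 in DU145, with medians of 32, 28 and 33 in HCT15, DU145 and PC3. The reference holds between 49 and 218 CpGs in each promoter, so RRBS read only a part of each. Single CpGs have Wilson intervals at the 95% level, which cover counting error only. A promoter's mean is given with the SD over its CpGs, which share reads and are no replicates. Differences between cell lines therefore rest on 1 library each, and partial methylation of all DNA copies cannot be told apart from full methylation of some.

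CpGs inside CCGG, the sequence that MspI cuts, stood apart from the others in all 3 libraries. In the HOX clusters, 3.44% of 929 such CpGs in HCT15 were at most 20% methylated, against 40.6% of 3380 CpGs elsewhere. The shares were 1.95% of 872 and 28.5% of 3044 in DU145, and 3.74% of 1015 and 38.6% of 3737 in PC3. The same held over the genome, with 2.92% against 31.1% in HCT15, 2.01% against 28.4% in DU145 and 3.5% against 35% in PC3. In the HOXC9 stretch printed below, the highest DU145 value was 59.0% with these CpGs and 2.88% without them. Promoter means are given with all CpGs, and for members low in all 3 lines also without those inside CCGG. The cause was not tested.

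HOXB13 and HOXC9, 2 genes at which the prostate lines stood at opposite ends, show the differences in sequence. For each gene, the 250 bases within 1 kb of its canonical start with the most CpGs read in all 3 lines and no base of a UTR are printed, 5′ to 3′ along the gene, with CpGs in capitals. Both lie in a coding exon and were chosen after their values were seen. They are chr17:46805427-46805676 on the minus strand for HOXB13 (ENSG00000159184.8) and chr12:54394222-54394471 on the plus strand for HOXC9 (ENSG00000180806.5), all on GRCh37.
HOXB13: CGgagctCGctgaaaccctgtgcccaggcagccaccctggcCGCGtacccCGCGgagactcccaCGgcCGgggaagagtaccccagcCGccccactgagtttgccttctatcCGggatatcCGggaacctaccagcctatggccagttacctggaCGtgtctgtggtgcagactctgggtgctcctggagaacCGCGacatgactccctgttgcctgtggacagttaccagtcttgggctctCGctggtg
HOXC9: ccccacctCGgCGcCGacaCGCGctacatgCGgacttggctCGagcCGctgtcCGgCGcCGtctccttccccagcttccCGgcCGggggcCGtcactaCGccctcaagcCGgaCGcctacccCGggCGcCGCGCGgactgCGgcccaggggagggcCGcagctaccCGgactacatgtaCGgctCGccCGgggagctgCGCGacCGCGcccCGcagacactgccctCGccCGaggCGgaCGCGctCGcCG

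The HOXB13 stretch holds 15 CpGs, of which 8 were read in each line. Their mean was 17.6% ± 21.8 in HCT15, 92.1% ± 10.2 in DU145 and 13.0% ± 22.5 in PC3 (SD over CpGs). Away from CCGG the means over 6 CpGs were 6.08% ± 3.16, 95.1% ± 10.1 and 0.84% ± 1.00. Position 46806105, outside the printed stretch and 7 bases inside the gene from its start, was picked for the largest range over the lines within 1 kb of the start. Its intervals show counting error only and are no separate support for a difference. There, 0 of 32 reads were methylated in HCT15 (95% Wilson interval with an upper limit of 10.7%), 48 of 48 in DU145 (lower limit 92.6%) and 0 of 63 in PC3 (upper limit 5.75%). The prostate lines stood at opposite ends at this gene.

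The HOXC9 stretch holds 40 CpGs, of which 20 were read in each line. Their mean was 95.7% ± 4.34 in HCT15, 5.97% ± 15.4 in DU145 and 93.9% ± 12.0 in PC3. Away from CCGG the DU145 mean was 1.05% ± 1.102 over 18 CpGs, and the highest of them was at 2.88%. Position 54394252 was picked in the same way, for the largest range over the lines. There, 20 of 24 reads were methylated in HCT15 (83.3%, 64.1 to 93.3), 0 of 14 in DU145 (upper limit 21.5%) and 12 of 12 in PC3 (lower limit 75.8%).

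**Figure D1:**
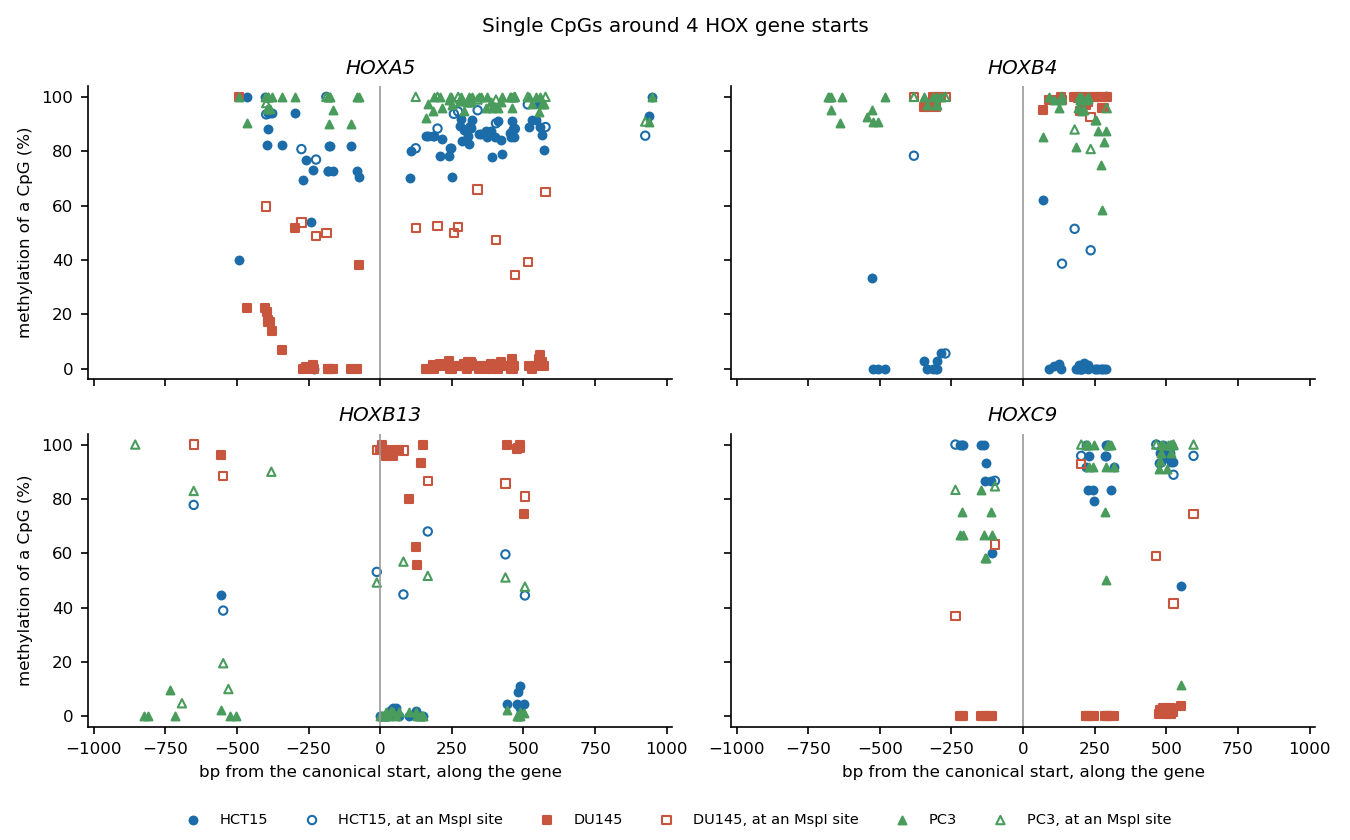
Methylation (%) of each CpG read at least 10 times, by distance in bp from the canonical start along the gene, for 4 HOX genes. Colours and shapes are the cell lines and open symbols are CpGs inside the MspI site. In HOXA5 and HOXC9 the filled DU145 symbols lie near 0 while the other lines lie high, with a DU145 mean of 1.05% over the printed HOXC9 stretch away from the MspI sites. In HOXB4 only HCT15 lies near 0, and in HOXB13 only DU145 lies high.

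Over all 38 promoters the median methylation was 39.5% in HCT15 and 46.4% in PC3, and it was 57.9% over 37 promoters in DU145. HOXB6, with 3 CpGs in DU145, was left out there. The medians over protein-coding promoters with at least 5 CpGs were 16.8% of 14250 in HCT15, 16.9% of 14163 in DU145 and 16.1% of 13557 in PC3. Without CpGs inside CCGG the HOX medians were 34.3%, 54.4% and 38.3% and the protein-coding ones 6.56%, 6.4% and 6.13%. At least 80% methylation was found in 9 of 38 HOX promoters in HCT15, 12 of 37 in DU145 and 10 of 38 in PC3, that is in 23.7%, 32.4% and 26.3%, against 18.4%, 10.5% and 8.5% of protein-coding promoters. At most 20% was found in 10, 4 and 13 HOX promoters, that is in 26.3%, 10.8% and 34.2%, against 56.7%, 58.9% and 61.4%. Without CpGs inside CCGG these counts were 17, 8 and 15 HOX promoters, against 68.2%, 73.5% and 75.8% of protein-coding promoters. Across promoters, the mean was only weakly related to the number of CpGs in the window, with a Spearman rho of 0.13 in HCT15, -0.19 in DU145 and 0.07 in PC3 (38 promoters of 1 library each, as a description).

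**Figure D2:**
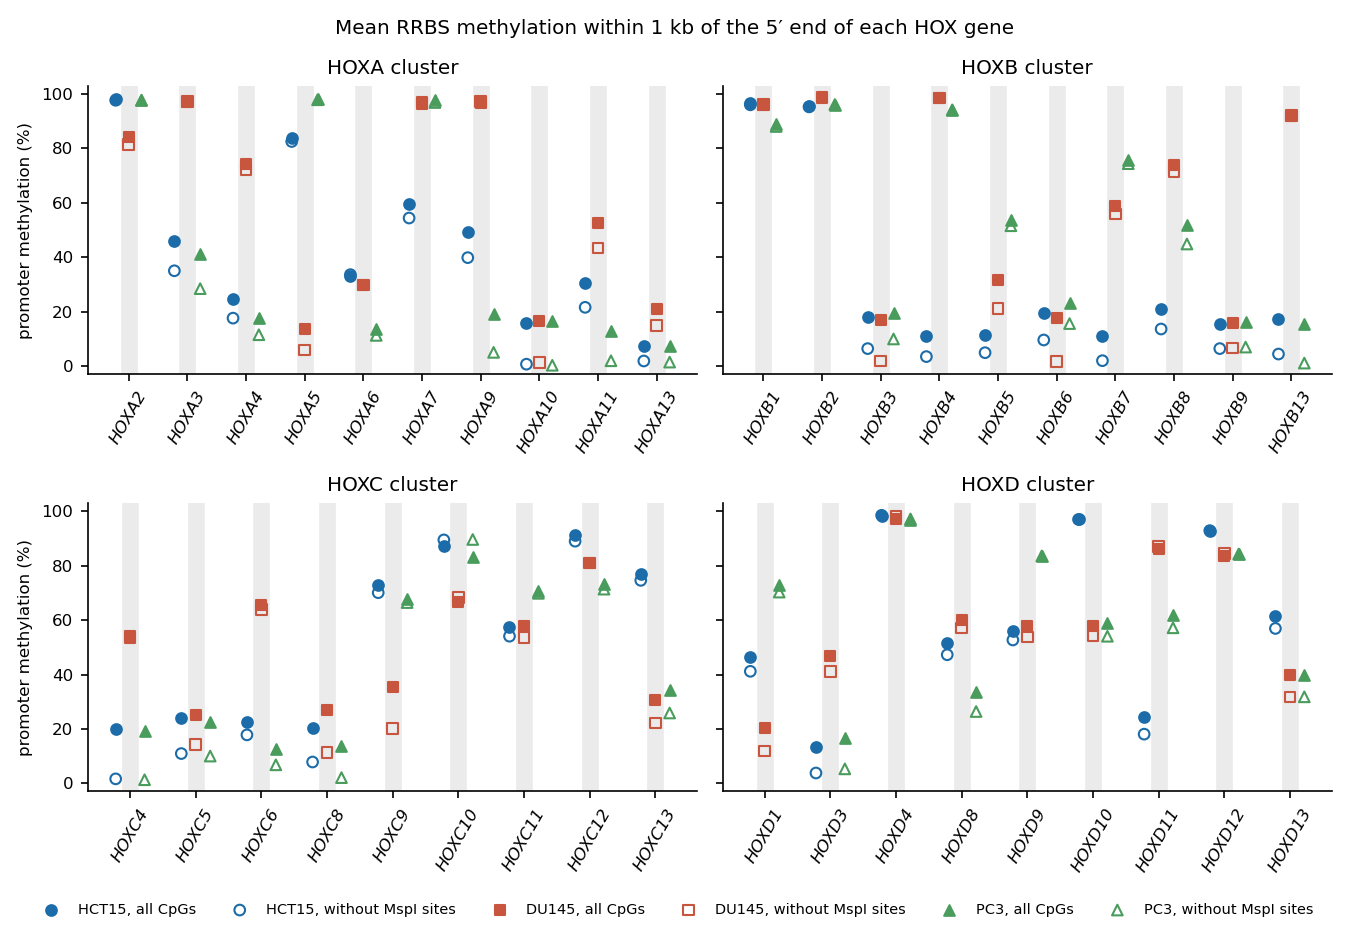
Mean RRBS methylation (%) within 1 kb of the 5′ end of each of the 38 HOX genes, by cluster and paralog number. Filled symbols use all CpGs read at least 10 times and open symbols leave out CpGs inside the MspI site. 21 of the 38 genes differ by at least 25 points in some pair of lines, a share not computed over all promoters. HOXA5, for example, has 13.4% in DU145 and 98.1% in PC3. HOXB1, HOXB2 and HOXD4 lie high and HOXB9 and HOXA10 lie low in all 3 lines.

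Promoters were compared between pairs of lines over the CpGs read in both, and a difference of at least 25 percentage points was counted. DU145 was higher than HCT15 at 12 of 37 HOX promoters (32.4%), where 1.56% of protein-coding promoters passed, and HCT15 was higher at 5 of 37 (13.5%, against 12.3%). PC3 was higher than HCT15 at 7 of 38 (18.4%, against 1.61%) and lower at 3 of 38 (7.89%, against 12.5%). DU145 was higher than PC3 at 11 of 37 (29.7%, against 4.4%) and lower at 3 of 37 (8.11%, against 3.25%). The HOX share was thus above the background where a prostate line was higher than HCT15 and where DU145 was higher than PC3. For PC3 above DU145 the share was also higher, but it rested on 3 promoters. The share higher in HCT15 was near or below the background. With 1 library per line there is no test of these counts. Without CpGs inside CCGG the counts were 12, 5, 7, 4, 11 and 3 in the same order, and each count held all genes of the first, with HOXC12 added where HCT15 was above PC3.

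**Figure D3:**
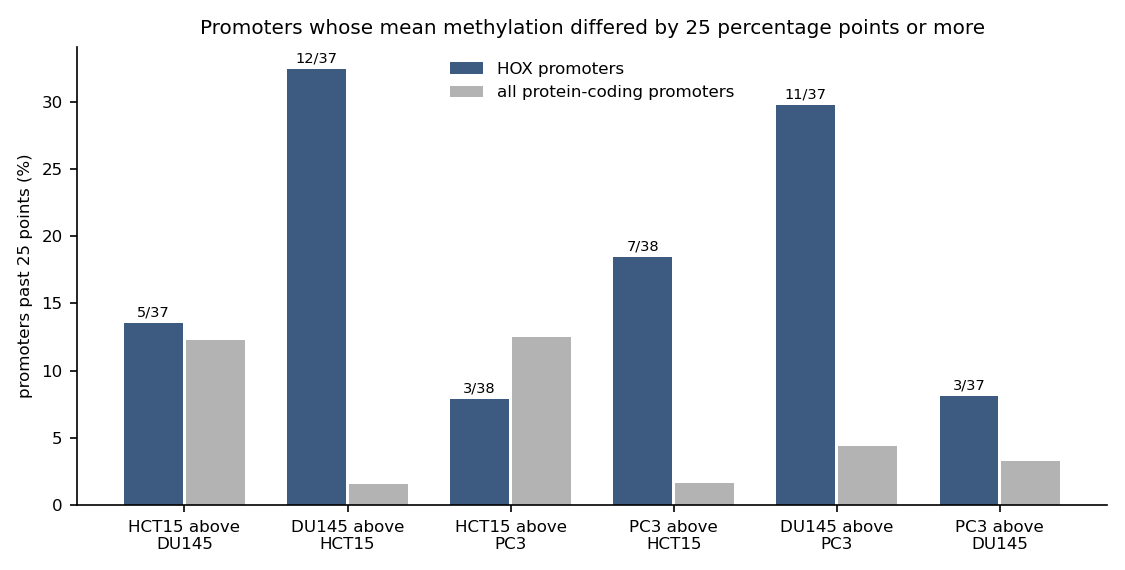
Share (%) of HOX promoters (dark bars, with the number called of the number compared) and of all protein-coding promoters (grey bars) whose mean methylation differed by at least 25 percentage points, by pair of lines and direction. The dark bar is far taller for DU145 above HCT15, with 32.4% against 1.56%, and for DU145 above PC3, with 29.7% against 4.4%.

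Of the 38 members, 21 differed in at least 1 pair and 17 in none at the 5′ ends of their gene records. The share of all protein-coding promoters that differ in any pair was not computed, so these counts have no background. HOXB6, among the 17, could be compared only between HCT15 and PC3. HOXA9, HOXB8 and HOXD11 differed in all 3 pairs. This split depended on the start used. At canonical starts HOXD11 passed 25 points in no pair, and HOXA9 differed by 10.7 points between HCT15 and PC3. HOXC9 and HOXB3, among the 17, differed there by 82.7 and 76.0 points between HCT15 and DU145. The values just inside the threshold were 25.1 points for HOXD13 between HCT15 and DU145 and 25.2 points for HOXD9 between PC3 and DU145. The nearest outside were 24.9 points for HOXC12 between HCT15 and PC3 and 21.7 points for HOXA11 between DU145 and HCT15.

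Single CpGs of the promoters were tested with Fisher's exact test on the reads of each pair of libraries, which compares those libraries and not the cell lines they stand for. A CpG was called at an adjusted p under 0.05, with Benjamini-Hochberg adjustment over the genome, and a difference of at least 25 points. DU145 was higher than HCT15 at 303 of 1268 HOX promoter CpGs (23.9%), where 2.23% of all CpGs near protein-coding 5′ ends were called, and lower at 211 (16.6%, against 12.2%). PC3 was higher than HCT15 at 243 of 1468 (16.6%, against 2.25%) and lower at 220 (15%, against 12.3%). Against PC3, DU145 was higher at 285 of 1305 (21.8%, against 5.47%) and lower at 241 (18.5%, against 4.27%).

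The 7 members of paralog groups 1 to 3 pattern the hindbrain and its nerves. Their median was 46.5% in HCT15, 84.2% in DU145 and 73.0% in PC3. HOXB1, which specifies the segment that gives the facial nerve, was methylated in every line, with 96.6% ± 5.58 in HCT15, 95.8% ± 6.96 in DU145 and 88.9% ± 14.6 in PC3. HOXB2, a neighbour of HOXB1 with a role in the same region, was at 95.7%, 98.5% and 96.1%. HOXA2, which patterns the second pharyngeal arch, was at 98.2%, 84.2% and 97.9%. These 3 promoters did not pass 25 points in any pair.

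HOXA3, needed for the thymus and parathyroid, was at 46.0% ± 35.5 over 13 CpGs in HCT15, 97.1% ± 4.59 over 13 in DU145 and 41.2% ± 45.9 over 20 in PC3. Over the CpGs read in both lines of a pair, the DU145 mean exceeded that of HCT15 by 51.1 points and that of PC3 by 43.4. HOXD1 was at 46.5% ± 40.8, 20.5% ± 23.1 and 73.0% ± 22.7, and 58 of 75 CpGs were called higher in PC3 than in DU145. HOXD3, a paralog of HOXA3, was at 13.3% ± 23.1, 46.9% ± 19.97 and 16.5% ± 27.5. At its canonical start, 20695 bp away, it was at 56.2%, 75.9% and 88.2%, with PC3 highest. HOXB3 was at 18.1%, 17.0% and 19.6% at the 5′ end of its gene record, a window that overlaps that of HOXB6, and at 6.35%, 1.73% and 9.9% without CpGs inside CCGG. Its canonical start lies 14671 bp away and was at 22.7% in HCT15, 95.7% in DU145 and 98.1% in PC3.

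The 15 members of paralog groups 4 to 8 act in the neck and thorax. Their median was 22.4% in HCT15, 59.5% over 14 promoters in DU145 and 33.4% in PC3. HOXA5, which is needed for lung development and is often silenced in carcinomas, was at 83.8% ± 13.3 over 83 CpGs in HCT15, 13.4% ± 22.3 over 78 in DU145 and 98.1% ± 2.76 over 74 in PC3. Of the 78 CpGs shared by HCT15 and DU145, 71 were called higher in HCT15 (smallest adjusted p 2.07e-57, Fisher's exact test), and of 71 shared by DU145 and PC3, 70 were called higher in PC3 (smallest adjusted p 7.62e-87). HOXA5 was the only member of the cluster at which DU145 had the lowest promoter mean by over 25 points.

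HOXA4, beside HOXA5, went the other way, with 24.5% ± 33.6 in HCT15, 74.3% ± 20.1 in DU145 and 17.8% ± 33.0 in PC3. HOXA7, a factor of the thoracic segments, was at 59.7% ± 17.9, 97.0% ± 3.42 and 97.7% ± 3.42, with both prostate lines above HCT15. At its canonical start, 1261 bp away, PC3 was at 42.5% ± 42.9 and HCT15 at 27.6% ± 27.0 while DU145 stayed at 96.5% ± 6.57. HOXA6, whose record window overlaps that of HOXA3, was at 33.1%, 29.8% and 13.7% and passed 25 points in no pair. At its canonical start, 2829 bp away, it was at 61.9%, 95.5% and 41.9%.

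In the HOXB cluster the members of these groups were low in HCT15. HOXB4, which supports the growth of blood stem cells, was at 10.8% ± 24.0 over 40 CpGs in HCT15, 98.6% ± 1.93 over 36 in DU145 and 94.2% ± 8.17 over 47 in PC3. All but 2 of the 36 CpGs shared with DU145 and all but 3 of the 40 shared with PC3 were called lower in HCT15. HOXB5 was at 11.2% ± 21.1, 31.6% ± 37.9 and 53.7% ± 41.4, and only PC3 against HCT15 passed 25 points. HOXB7, a factor with raised expression in several carcinomas, was at 10.9% ± 21.8, 58.8% ± 25.3 and 75.7% ± 22.3. At its canonical start, 22555 bp away, HCT15 and DU145 were both low, at 14.0% ± 22.9 and 14.4% ± 22.2, and PC3 was at 71.2% ± 27.5. HOXB8 was at 20.9% ± 24.7, 74.1% ± 23.2 and 51.7% ± 36.2. HOXB6 was at 19.6% over 8 CpGs in HCT15 and 23.02% over 7 in PC3, and its 3 CpGs in DU145 averaged 17.6%. Without CpGs inside CCGG, HOXB4 was at 3.41% in HCT15, and HOXB6 was at 9.52% in HCT15 and 15.6% in PC3.

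In the HOXC and HOXD clusters, HOXC4 was at 20.1% ± 32.0, 53.4% ± 25.5 and 19.3% ± 32.3, each over 11 CpGs. Its canonical start lies 36904 bp away and was high in all lines, at 88.2%, 96.2% and 91.4%. HOXC6, which is overexpressed in many prostate cancers, was at 22.4% ± 30.5, 65.7% ± 13.0 and 12.6% ± 24.5, each over 16 CpGs. HOXC5, at 24.0%, 24.9% and 22.5%, and HOXC8, at 20.4%, 26.9% and 13.6%, passed 25 points in no pair. Without CpGs inside CCGG they were at 10.9%, 14.2% and 9.98% and at 7.79%, 11.3% and 2.04%. HOXD4 was among the most methylated promoters of every line, at 98.3%, 97.2% and 96.7%. HOXD8 was at 51.5% ± 24.0, 60.2% ± 21.9 and 33.4% ± 41.1, and 58 of 75 shared CpGs were called higher in DU145 than in PC3.

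The 16 members of paralog groups 9 to 13 act in the posterior trunk, the limbs and the urogenital tract, which includes the prostate. Their median was 56.8% in HCT15, 57.7% in DU145 and 49.3% in PC3. HOXB13, a prostate factor that binds together with the androgen receptor, was at 17.1% ± 24.8 over 28 CpGs in HCT15, 91.9% ± 11.6 over 28 in DU145 and 15.6% ± 28.3 over 38 in PC3. Of the 28 CpGs shared by the prostate lines, 27 were called higher in DU145 (smallest adjusted p 7.55e-97, Fisher's exact test). Without CpGs inside CCGG the promoter was at 4.35% in HCT15, 92.1% in DU145 and 1.01% in PC3.

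HOXA9, a factor of blood stem cells and leukaemia, was at 49.3% ± 16.2, 96.9% ± 3.77 and 19.0% ± 27.1. At its canonical start, 9643 bp away, HCT15 was at 20.4% ± 28.5 and PC3 at 12.2% ± 21.6, while DU145 was at 98.7% ± 2.03. HOXA10, a factor of the uterus and the male tract, was low in every line, at 15.8%, 16.6% and 16.7%, and at 0.61%, 1.24% and 0.21% without CpGs inside CCGG. HOXA11 was at 30.4% ± 28.2, 52.8% ± 45.2 and 12.7% ± 25.5. Over the CpGs read in both, DU145 was above PC3 by 37.02 points. HOXA13, which shapes the hand and the urogenital tract, had the lowest promoter mean of HCT15 and PC3, with 7.19% ± 17.0, 20.8% ± 26.1 and 7.3% ± 17.9, and with 1.79%, 14.8% and 1.38% without CpGs inside CCGG. HOXB9 was low in all lines, at 15.5%, 15.9% and 16.2%, and at 6.35%, 6.57% and 6.9% without them. The posterior HOXA promoters of PC3 were thus all below 20%.

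The posterior HOXC promoters were methylated to some degree in every line. HOXC13, a factor of hair and nails, was at 77.1% ± 32.1 in HCT15, 30.5% ± 25.4 in DU145 and 34.2% ± 29.5 in PC3. HOXC9 was at 72.8%, 35.3% and 67.9% at the 5′ end of its gene record, over 19, 10 and 19 CpGs, and passed 25 points in no pair over shared CpGs. At its canonical start, 5266 bp away and holding the printed stretch, it was at 92.5% ± 10.7, 9.76% ± 23.2 and 86.5% ± 19.0, each over 40 CpGs. HOXC10 was at 87.3%, 66.6% and 83.4%, HOXC11 at 57.5%, 57.9% and 70.6%, and HOXC12 at 91.3%, 81.1% and 73.5%.

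In the HOXD cluster, HOXD10 was at 97.4% ± 3.797 in HCT15, 57.7% ± 24.2 in DU145 and 58.9% ± 26.7 in PC3. HOXD13, the limb gene at the cluster's end, was at 61.7% ± 19.3, 39.9% ± 31.3 and 39.7% ± 27.9. Over the 62 CpGs read in both, HCT15 was higher than DU145 by 25.1 points. HOXD9 was at 56.1% ± 24.8, 57.8% ± 20.2 and 83.7% ± 18.3, with PC3 above both others. HOXD11 was at 24.5% ± 23.01, 86.1% ± 19.3 and 61.9% ± 35.1. HOXD12 was high in all lines, at 93.0%, 83.4% and 84.5%. At the 5′ ends of these gene records, HCT15 thus had the highest mean of the lines at HOXD10, HOXD12 and HOXD13. It had the lowest at HOXD11 and, close to DU145, at HOXD9.

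Where a gene's record and its canonical transcript start at different places, the choice decided the value. The distance was over 1 kb in 12 of 38 members, namely HOXA6, HOXA7, HOXA9, HOXA10, HOXB3, HOXB7, HOXC4, HOXC6, HOXC9, HOXD3, HOXD10 and HOXD11. HOXD10 moved to 95.3%, 87.1% and 92.3%, and HOXD11 to 55.2%, 37.4% and 38.5% in HCT15, DU145 and PC3. HOXA10 moved to 20.1%, 30.7% and 11.8%, and HOXC6 to 18.3%, 44.4% and 21.0%. At canonical starts HCT15 exceeded PC3 by 25 points at 1 promoter and PC3 exceeded DU145 at 5.

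Methylation was then followed along the clusters. The means over all CpGs of the HOXA cluster were 44.4% ± 39.2 over 1244 in HCT15, 58.4% ± 41.7 over 1119 in DU145 and 37.3% ± 42.7 over 1353 in PC3 (SD over CpGs). In HOXB they were 36.1% ± 40.2 over 1189, 64.9% ± 37.3 over 1107 and 61.5% ± 39.1 over 1425. HOXC was at 69.8% ± 34.5, 64.3% ± 34.3 and 64.2% ± 35.0, and HOXD at 68.0% ± 35.4, 59.3% ± 34.9 and 64.3% ± 36.5. The lines thus lay farthest apart in HOXA and HOXB.

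**Figure D4:**
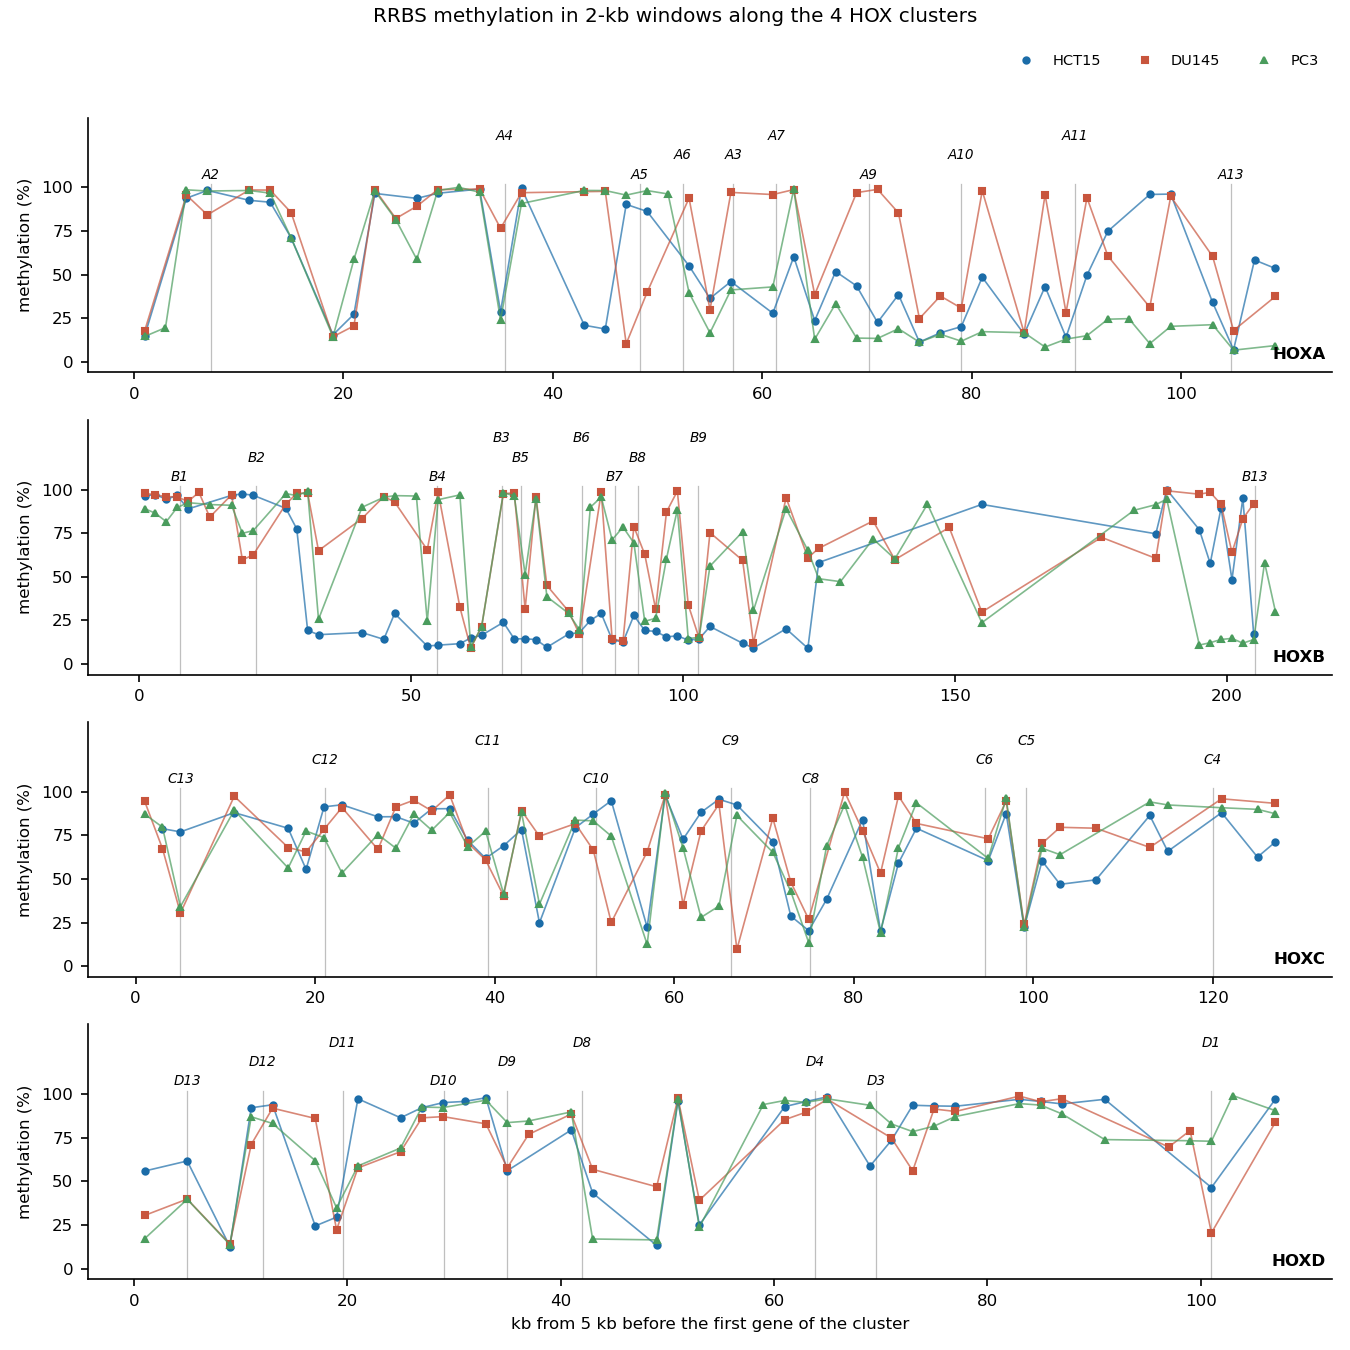
Mean RRBS methylation (%) in 2-kb windows with at least 3 CpGs along the 4 HOX clusters, in kb from 5 kb before the first gene, with straight lines joining windows across gaps and grey lines at the canonical starts. In HOXB, the HCT15 circles lie between 9.02% and 29.0% from 31 to 123 kb, while DU145 and PC3 rise and fall. In HOXA, the PC3 triangles lie low from HOXA9 to HOXA13, where its mean was 14.0%.

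A long low stretch was in HCT15. From the 3′ end of HOXB3 to the 5′ end of HOXB9 (chr17:46626232-46703720, 77.5 kb), chosen after its values were seen, the mean was 21.3% ± 31.1 over 717 CpGs in HCT15, 59.0% ± 39.9 over 622 in DU145 and 65.7% ± 39.2 over 815 in PC3. Away from CCGG, 84.4% of the HCT15 CpGs were at most 20% methylated, against 35% in DU145 and 29.4% in PC3. The adjacent stretch from HOXB1 to HOXB2 (chr17:46605888-46622471, 16.6 kb) was reversed, with 96.5% ± 5.12 over 126 CpGs in HCT15, 70.4% ± 37.9 over 140 in DU145 and 80.03% ± 22.1 over 155 in PC3. Within the first of these stretches, the 2-kb windows of HCT15 at 27 and 29 kb, near the 3′ end of HOXB3, were still at 89.2% and 77.4%. Those from 31 to 123 kb, which run past the stretch and the 5′ end of HOXB9, were at 29.0% or less.

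In PC3 the low stretch was posterior HOXA, also chosen after its values were seen. From HOXA9 to HOXA13 (chr7:27202057-27239710, 37.7 kb) the mean was 35.4% ± 35.8 over 485 CpGs in HCT15, 50.9% ± 41.5 over 471 in DU145 and 14.0% ± 25.04 over 543 in PC3. Away from CCGG, 93.3% of the PC3 CpGs were at most 20% methylated, against 55.2% in HCT15 and 45.9% in DU145. From HOXA2 to HOXA4 (chr7:27139973-27170399, 30.4 kb) all lines were methylated, with 67.1% ± 42.0, 75.1% ± 35.8 and 70.8% ± 40.1.

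CpGs were also sorted by their state in the 3 lines, over CpGs read at least 10 times in all of them. Of 3503 such CpGs in the clusters, 17.9% were at least 80% methylated in every line, against 35.4% of 1569113 over the genome, and 13.1% were at most 20% in every line, against 21%. CpGs low in HCT15 and high in both prostate lines made up 5.02% of the clusters and 0.33% of the genome, and 152 of the 176 lay in HOXB, where they were 14.9% of 1023 CpGs. CpGs high only in DU145 were 2.46% against 0.29% over the genome, with 59 of 86 in HOXA. CpGs low only in DU145 were 2.48% against 0.4%, with 45 in HOXA, 26 in HOXC, 16 in HOXD and 0 of 1023 in HOXB. CpGs high only in PC3 were 1.31% against 0.16%, with 39 of 46 in HOXB. CpGs high only in HCT15 were rarer than over the genome, at 0.71% against 1.5%, and those low only in PC3 were 1.17% against 0.89%.

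Over whole clusters, Fisher's exact test called DU145 higher than HCT15 at 853 of 3570 CpGs (23.9%), where 6.95% of the CpGs of the genome were called, and lower at 476 (13.3%, against 7.18%). PC3 was higher than HCT15 at 714 of 4085 (17.5%, against 3.8%) and lower at 614 (15%, against 11.3%). Against PC3, DU145 was higher at 746 of 3731 (20%, against 12.1%) and lower at 511 (13.7%, against 3.38%). HOXB held 404 of the 853 CpGs higher in DU145 than HCT15 and 455 of the 714 higher in PC3 than HCT15. HOXA held 353 of the 746 higher in DU145 than PC3.

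Called CpGs were grouped into runs, which were sought only inside the clusters. No count over the genome stands beside them, and neighbouring CpGs share reads. Runs of at least 5 neighbouring CpGs called the same way, with gaps of at most 1000 bp, numbered 54 for DU145 above HCT15 and 28 for the reverse, 46 for PC3 above HCT15 and 36 for the reverse, and 47 for DU145 above PC3 and 32 for the reverse. The longest held 70 CpGs, across the start of HOXA5 and into its coding exon, with a mean difference of 86.2 points between PC3 and DU145. At posterior HOXA, a run of 53 CpGs over chr7:27231956-27233554, just beyond the 3′ end of HOXA13 by its canonical transcript, was at 95.9% ± 6.13 in HCT15 and 9.64% ± 19.8 in PC3, with 36.6% ± 32.0 in DU145. A run of 51 CpGs over chr7:27204010-27205964, in HOXA9 and upstream of it, was at 98.7% ± 1.98 in DU145 and 10.7% ± 20.3 in PC3.

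Other runs marked further members. A run of 34 CpGs at the start of HOXB4 was at 6.52% ± 16.1 in HCT15 and 98.5% ± 1.96 in DU145. A run of 33 CpGs over chr17:46669647-46670910 in HOXB5 was at 13.9% ± 22.3 in HCT15 and 94.9% ± 9.35 in PC3. A run of 27 CpGs over chr17:46805607-46806669 at the start of HOXB13 differed by 80.7 points between the prostate lines. A run of 26 CpGs over chr12:54394163-54394471, in the coding exon of HOXC9, differed by 90.1 points, with PC3 high. In the intron of HOXC10, 21 CpGs over chr12:54379853-54380078 were at 94.9% ± 4.80 in HCT15, 25.1% ± 18.2 in DU145 and 74.7% ± 17.8 in PC3.

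By annotation, the lines differed in which parts of the genes were methylated. Coding exons were at 57.1% ± 40.5 over 1128 CpGs in HCT15, 54.7% ± 39.8 over 1076 in DU145 and 61.8% ± 39.5 over 1253 in PC3. Introns were at 48.1% ± 40.8, 61.6% ± 37.6 and 59.9% ± 40.01, and CpGs between genes at 54.6% ± 40.4, 66.4% ± 35.2 and 50.7% ± 40.5. The kb upstream of canonical starts was at 50.8% ± 39.2, 61.0% ± 38.4 and 52.2% ± 40.8. UTRs were at 45.8% ± 38.5 over 333 CpGs, 66.8% ± 34.7 over 271 and 50.3% ± 42.3 over 379. Coding exons were thus the least methylated of these parts in DU145 and the most methylated in HCT15 and PC3, and UTRs were the reverse. The SDs over CpGs exceed these differences.

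Of 36 genes for cofactors and regulators of HOX proteins, values were found for 30 (HCT15), 31 (DU145) and 27 (PC3), and the medians were 17.0%, 17.0% and 16.4%, close to those of all protein-coding promoters. HCT15 was higher by 25 points than DU145 at 3 of 30 and than PC3 at 3 of 26, namely at the cofactors MEIS1, PKNOX2 and MEIS3, where 12.3% and 12.5% of all protein-coding promoters passed, so these counts were not above the background. MEIS1 was at 91.3% in HCT15 and 18.0% in DU145 over 26 CpGs, and PKNOX2 at 83.8% and 19.1% over 57. DU145 exceeded HCT15 at 1 of 30 and PC3 at 1 of 27, both times at CDX2, a gut factor that activates HOX genes, with 10.2% in HCT15, 49.7% in DU145 and 22.8% in PC3.

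Of 19 non-coding genes inside the clusters, some of which share windows with HOX genes, 18 were matched and had values, with medians of 64.4% in HCT15, 51.3% in DU145 and 50.6% in PC3. HCT15 was higher than DU145 at 6 of 18 and lower at 5, higher than PC3 at 3 and lower at 1, and DU145 was higher than PC3 at 6 and lower at 4. The protein-coding background in these directions was 12.3%, 1.56%, 12.5%, 1.61%, 4.4% and 3.25%. MIR196A1, a microRNA gene whose product targets HOX transcripts, was at 9.65% in HCT15, 100% in DU145 and 94.6% in PC3 over 6 CpGs. HOXC-AS1 was at 92.5%, 9.76% and 86.5% over the 40 CpGs of the canonical HOXC9 promoter. HOXB-AS1 was at 97.6%, 31.1% and 57.4% over 54 CpGs. HOXC-AS2 was at 88.2% in HCT15 and 28.0% in PC3 over 14 CpGs, and MIR196A2, which reads the 16 CpGs of the HOXC6 record, at 22.4%, 65.7% and 12.6%.

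Of 14 flanking genes, 11 had a value in each line, with medians of 25.9%, 28.5% and 16.2%. PRAC1 and PRAC2, which lie between HOXB9 and HOXB13 and are named for expression in prostate, rectum and colon, were at 89.5% and 62.4% in HCT15 and at 14.1% and 13.4% in PC3, while over the CpGs shared with PC3 they were at 91.5% and 76.2% in DU145. SKAP1, beyond HOXB1, was at 54.9%, 19.3% and 93.3% over 9 CpGs. EVX1, beyond HOXA13, was at 25.8% in HCT15 and 72.8% in DU145. HCT15 was higher than DU145 at 1 of 10 and lower at 1, and higher than PC3 at 2 of 11 and lower at 1. Against PC3, DU145 was higher at 3 of 11 and lower at 1. With the same background shares as for the non-coding genes, HCT15 above DU145 was near the background, and the other counts are of 1 to 3 genes.

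The MBD-seq libraries held between 10040 and 7344098 fragments. The DU145 libraries of MethylMagnet, MethylCollector and MethylCollector Ultra were the smallest, with 10040, 29613 and 30336. The deposited depth was compared with RRBS at the HOX promoters as the number of fragments that touch them and as fold, the mean depth over the promoter divided by the library's mean depth over the genome. Promoters were grouped by their RRBS mean in the same line, which gave 28 combinations of a promoter and a line at most 20% methylated, 55 between, and 31 at least 80%. HOXB6 in DU145, left out of the medians above, was kept in the low class here. Its window overlaps nearly all of that of HOXB3, so a fragment there can count for both.

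MethylCap, the kit with the most fragments after MethylMiner, had 21 fragments over the 28 low promoters and 307 over the 31 high ones. Its fold was 0.56 ± 0.06 in the low class and 7.01 ± 1.31 in the high class (SD, n = 3 cell lines). MethylCollector had 1 and 78 fragments, MethylCollector Ultra 11 and 198, and MethylMagnet 6 and 73. Their fold in the high class was 32.5 ± 3.17, 21.1 ± 2.87 and 30.6 ± 16.6, and in the low class 0.18 ± 0.31, 0.80 ± 0.91 and 2.98 ± 4.02. The low class of MethylMagnet was at 7.55 in HCT15, from 3 fragments. In DU145 the high-class folds of these kits rested on 8, 5 and 1 fragments. MethylMiner had 165 and 196 fragments, and its fold was 2.14 ± 0.54 in the low class and 2.30 ± 0.55 in the high class, a difference below the SD between lines.

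**Figure D5:**
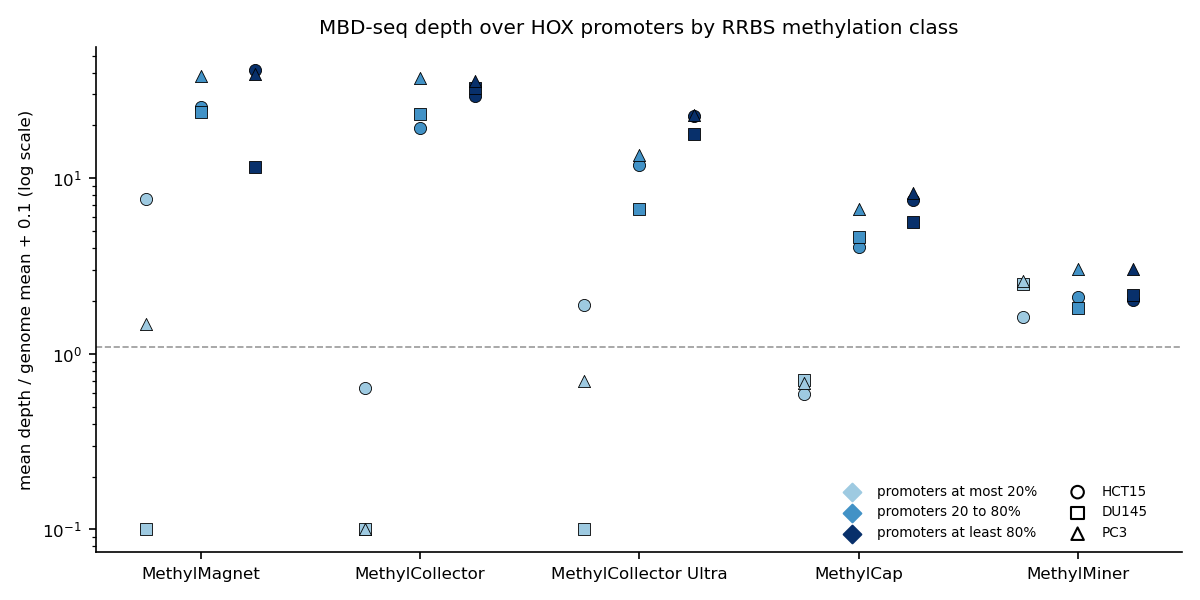
Mean MBD-seq depth over HOX promoters relative to the genome mean, plus 0.1 and on a log scale, by kit and by RRBS class of the promoter. Colours are the classes, shapes the cell lines, and the dashed line marks the genome mean. In 4 kits the darkest symbols lie far above the palest, as 7.01 against 0.56 on average for MethylCap, while the 3 classes of MethylMiner overlap.

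At single promoters the contrast was seen in counts, which are not scaled to the size of the library. HOXD4, the highest promoter by the mean over the lines, gave 23, 4 and 4 MethylCap fragments from HCT15, DU145 and PC3. HOXB2 had 3, 0 and 1, HOXB1 had 21, 5 and 6, HOXA2 had 15, 5 and 3, and HOXD12 had 29, 4 and 10. HOXB9 had 0 in every line, as had HOXB3 and HOXB6, while HOXA10 had 2, 0 and 1 and HOXA13 had 1, 3 and 0. MethylMiner gave HOXB9 13, 9 and 11 fragments and HOXD4 13, 4 and 2. HOXB9, low by RRBS in all lines, thus had fragments from MethylMiner and none from MethylCap. A count of 0 allows up to 3 in each library (3-count limit). HOXB2, at 98.5% by RRBS in DU145, also had 0 MethylCap fragments there, so a 0 in that library cannot show absence of capture.

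At the starts of single genes fragments were few. Within 1 kb of the HOXA5 start, the MethylCap libraries of HCT15, DU145 and PC3 gave 32, 2 and 8 fragments, and those of MethylCollector Ultra gave 24, 0 and 13. MethylMiner had 11, 11 and 10 there. At the canonical start of HOXC9, MethylCap had 18, 0 and 8 fragments and MethylMiner 16, 5 and 1. At HOXB4, MethylCollector Ultra had 0, 0 and 10 fragments, and in DU145, where RRBS gave 98.6%, only MethylMiner had a fragment, 1 in all. At HOXB13, MethylCap had 8, 1 and 0 fragments, where RRBS was at 17.1%, 91.9% and 15.6%. The MethylCap libraries of HCT15, DU145 and PC3 held 3886402, 823586 and 950278 fragments. Counts at 1 promoter therefore cannot be compared between lines as they stand. The DU145 libraries of the 4 kits other than MethylMiner held 10040 to 823586 fragments, too few to read a count of 0 at 1 promoter as absence of capture.

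Across the 38 promoters of a library, the Spearman rho between RRBS mean and fold ran from 0.31 to 0.82 over the 3 lines with MethylCap and from 0.34 to 0.80 with MethylCollector. It ran from 0.08 to 0.78 with MethylCollector Ultra, from 0.19 to 0.67 with MethylMagnet and from 0.09 to 0.28 with MethylMiner. These are correlations across genes within a library, given as a description. The lowest value of each kit was in DU145. At the 41 pairs of lines and promoters that differed by 25 points in RRBS, the MethylCap fold moved the same way in 31, the opposite way in 7, and no fragment was found in 3. For MethylCollector the numbers were 25, 7 and 9, for MethylCollector Ultra 20, 11 and 10, for MethylMagnet 19, 7 and 15, and for MethylMiner 23, 18 and 0.

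At single CpGs of the clusters, the share of the depth on CpGs at most 20% methylated was divided by the share of those CpGs among all read by RRBS, so that a ratio of 1 means no selection. MethylMiner had a ratio of 1.09 ± 0.211 and MethylCap one of 0.19 ± 0.129 (SD, n = 3). MethylMagnet was at 0.113 ± 0.104, MethylCollector at 0.127 ± 0.0452 and MethylCollector Ultra at 0.451 ± 0.608. Differences between kits took up 69.7% of the total variation, with p = 0.0386 by an exact permutation of the kits inside each line (14400 relabellings, smallest possible p 6.94e-05), and MethylMiner had the highest ratio in 3 of 3 lines. Leaving MethylMiner out gave 21.8% with an exact permutation p of 0.965. The high SD of MethylCollector Ultra came from its DU145 library, with a ratio of 1.15 from a depth sum of 138 over 3916 CpGs. Without DU145 the kits held 98.6% (exact permutation p = 0.0167), and the call was lost without HCT15 (p = 0.192) and without PC3 (p = 0.225). It was also lost with each CpG counted once (69.6%, exact permutation p = 0.0534).

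For CpGs at least 80% methylated MethylMiner had a ratio of 0.99 ± 0.146 and MethylCap one of 1.65 ± 0.196 (SD, n = 3). MethylMagnet was at 1.68 ± 0.0606, MethylCollector at 1.60 ± 0.256 and MethylCollector Ultra at 1.61 ± 0.359. Differences between kits took up 66.3% of the variation (p = 0.0374, same exact permutation), and MethylMiner was lowest in 3 of 3 lines. Leaving MethylMiner out gave 2.53% with an exact permutation p of 0.934. With 1 line left out, which leaves 120 relabellings, the exact permutation p was 0.125 without HCT15, 0.108 without DU145 and 0.192 without PC3. Both results thus rested on MethylMiner, whose ratios lay between 0.84 and 1.32.

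Depth over whole clusters was compared between cell lines with the kit as block, on log2(fold + 0.1). The 5 libraries of a line share its DNA, so for every cluster the SD over kits is technical. The tests compare these DNAs and not replicate cultures. In HOXB the PC3 library was higher than HCT15 and than DU145 in 5 of 5 kits. There, the DU145 libraries of MethylMagnet, MethylCollector and MethylCollector Ultra gave only 3, 19 and 10 fragments. The fold was 2.91 ± 1.25 in HCT15, 4.08 ± 2.93 in DU145 and 6.48 ± 3.98 in PC3 (SD, n = 5 kits), and log2(fold + 0.1) was lower in HCT15 than in PC3 by 1.01 on average (SD 0.41). Cell lines took up 22.8% of the variation (adjusted p = 0.0123 over 4 clusters, exact permutation of the lines inside each kit, 1296 relabellings). MethylMiner, whose depth did not follow RRBS, was also higher in PC3, with 2.42 against 1.66 in HCT15 and 1.65 in DU145. With each kit divided by MethylMiner, an alternative added after seeing the data, the exact permutation adjusted p was 0.228, and without MethylCap it was 0.0741. How far the number of copies of the region differs between the lines was not tested.

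From HOXB3 to HOXB9, the stretch low in HCT15 by RRBS, MethylCap had a fold of 0.43 in HCT15, 2.60 in DU145 and 4.45 in PC3, from 49, 60 and 116 fragments. MethylCollector had 2.75, 9.09 and 19.6. MethylMiner had 1.66, 1.52 and 2.74. From HOXB1 to HOXB2 MethylCap had 3.58, 2.50 and 4.51, so the low values of HCT15 lay in the stretch where RRBS had them.

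In HOXA, DU145 was higher than HCT15 in 4 of 5 kits and than PC3 in 4 of 5, with a fold of 6.61 ± 4.28 in HCT15, 12.0 ± 10.5 in DU145 and 5.77 ± 4.26 in PC3 (SD, n = 5). From DU145, the MethylMagnet fold was 27.9 on 10 fragments, and those of MethylCollector and MethylCollector Ultra rested on 18 and 13. Cell lines held 7.43% (exact permutation adjusted p = 0.0329). This call was lost without MethylMagnet (adjusted p = 0.191 by exact permutation), without MethylCollector Ultra (0.106) and without MethylCap (0.13). From HOXA9 to HOXA13, the low stretch of PC3, MethylCap had a fold of 2.58 in HCT15, 4.10 in DU145 and 0.24 in PC3, from 134, 46 and 3 fragments, and MethylMiner had 2.12, 1.73 and 1.93.

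In HOXD, DU145 was lower than HCT15 and than PC3 in 5 of 5 kits, with a fold of 8.31 ± 6.18 in HCT15, 5.14 ± 3.67 in DU145 and 7.91 ± 5.45 in PC3 (SD, n = 5, 5.03% of the variation, exact permutation adjusted p = 0.0231). Without MethylCap the adjusted p was 0.0741 by the same exact permutation. The DU145 folds of MethylMagnet, MethylCollector and MethylCollector Ultra in HOXD rested on 3, 11 and 5 fragments. In HOXC the fold was 6.21 ± 3.68, 5.26 ± 4.14 and 5.06 ± 3.22, and no difference passed (2.07%, exact permutation adjusted p = 0.231), though without MethylCollector Ultra the adjusted p was 0.0432 with a share of 0.81%.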

How the data were processed

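RRBS and MBD-seq were measured in 3 cell lines, with samples grouped by the labels. The RRBS files deposited by the authors give, for each CpG, 2 counts, the methylated reads and the total, with a lowest total of 6. The MBD-seq files deposited by the authors hold a signal, the unscaled coverage by fragments that mapped to 1 place, duplicates removed. The authors' processing notes name Bowtie and hg19, and the version of Bowtie is not given in the sources used here.

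CpGs with a coverage of at least 10 were used, with genes of GENCODE 44 on GRCh37. A promoter needed 5 CpGs read in both lines. Fragments were counted from rises of the depth. The steps were tested on simulated data and used scipy 1.17.1, numba 0.67.0, pandas 2.3.3, numpy 2.4.6 and matplotlib 3.10.9 under Python 3.11.15. Tests are Fisher's exact test per CpG and exact permutation tests with a block. Libraries of a cell line come from the same line and those of a kit from the same kit, which gives the pairing. The ratios' deviations correlated between kits by 0.19 for low and 0.95 for high CpGs on average.

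The members and lists were chosen with earlier results of these data known. Members with a difference of at least 25 points, the 3 highest and 3 lowest promoters, the cluster ends, and for MBD-seq the 5 highest and 5 lowest promoters were to be named, and at most 5 genes of other lists. The alternatives were a coverage of at least 20, no minimum difference, 500 bp, pooled reads, canonical starts, a pseudocount of 0.5, CpGs counted once, no block, and lines or kits left out. Some sequences are not reported here.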

Additional observations from a re-analysis of the deposited data

How the results depend on the processing

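Of 124 recomputed values, 99 kept their direction and side of the threshold, or stayed within 1.5 times. Leaving out CpGs inside CCGG, chosen after seeing the data, or requiring a coverage of at least 20 moved no count of calls by over 1.5 times, but the former raised the number of HOX promoters at most 20% methylated from 10 to 17 in HCT15 and from 4 to 8 in DU145. With 500 bp, promoter CpGs higher in DU145 than HCT15 fell to 183, in HCT15 than PC3 to 110 and in DU145 than PC3 to 153, over fewer CpGs, and promoters higher in HCT15 than PC3 numbered 1. Canonical starts gave 1 there and 5 for PC3 above DU145, and pooled reads gave 3 for HCT15 above DU145.

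For low CpGs, counting each CpG once gave 69.6% between kits (exact permutation p = 0.0534) and leaving out MethylMiner 21.8%. Leaving out a line gave 67.8% to 98.6% (73.6% without HCT15). For high CpGs, the share was 2.53% without MethylMiner and 57.2% to 94.4% with a line left out (72.6% without HCT15). Without the replicate block the kit effects kept their calls (permutation p = 0.0324 and 0.0286), while the cell-line effects of HOXA (7.43%), HOXB (22.8%) and HOXD (5.03%) had adjusted permutation p from 0.86 to 0.88. With a kit left out the shares were 3.96% to 17.5% for HOXA, 18.0% to 32.2% for HOXB, 0.81% to 4.89% for HOXC and 2.80% to 13.4% for HOXD. Divided by MethylMiner, HOXB was at 12.2%.

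Depth limits the DU145 MBD-seq values most. Neither the 1 RRBS library per line nor the MBD-seq libraries, which share the DNA of a line, measure the variation between cultures.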
